A study of Mus musculus with 16 samples.

Results

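A set of 10 lymphoid lineage factor genes was examined out of 21851 protein-coding genes of the GENCODE M21 annotation (mouse build mm10). The genes were chosen by name, with earlier results of these data known: Ebf1, Tcf3, Tcf7, Lef1, Bcl11a, Bcl11b, Ikzf1, Ikzf3, Rag1 and Rag2. Each was examined at its promoters, taken as the 1 kb before and the 1 kb after a coding start site, and over its window, taken as the gene body with 5 kb on either side. Hematopoietic stem cells (HSCs) were sorted from bone marrow of female C57BL/6 mice that were 10 weeks old (young) or 20 months old (aged), as cells negative for the IL-7 receptor (written as IL-7 in the labels), lineage markers, CD34, CD48 and Flt3 and positive for Sca-1, c-kit and CD150. Chromatin immunoprecipitation sequencing (ChIP-seq) of H3K4me3, H3K27me3 and H2AK119ub1 gave 2 libraries per mark and age, beside 2 input libraries per age. How many mice went into a library is not given in the sources used here. Each mark and age is represented by 1 list of peaks named as pooled, 6 lists in all, so the differences between the ages below are differences between lists and carry no test.

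Lymphoid fate is set by a small circuit of transcription factors. E2A, the product of Tcf3, and EBF1 act together in early B cells. TCF-1 (Tcf7), LEF1 and BCL11B act in developing T cells, the Ikaros family proteins and BCL11A act upstream or in both branches, and the RAG proteins cut antigen receptor genes in committed cells. H3K4me3 marks promoters that are active or poised, whereas H3K27me3 and H2AK119ub1 are written by Polycomb repressive complexes 2 and 1 and mark many silent developmental genes. A promoter with both H3K4me3 and H3K27me3 is called bivalent.

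The 10 genes fell apart by mark. Ebf1, Lef1, Bcl11b and Ikzf3 carried H3K27me3 at a promoter at both ages, with H2AK119ub1 regions there in the aged list and none in the young list. At a −log10 q of at least 2, aged H3K27me3 stayed at Lef1 and Ikzf3, and aged H2AK119ub1 at Ebf1, Lef1 and Ikzf3. With lists cut to equal length, aged H2AK119ub1 stayed at Ebf1 and Lef1 of these genes. Lef1 alone kept both aged marks under each cut. Bcl11a and Ikzf1 carried H3K4me3 without Polycomb marks at a promoter. Tcf7 had a promoter region of aged H2AK119ub1 alone, and Tcf3, Rag1 and Rag2 had no peak of any mark at a promoter.

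Stretches of reference sequence from 5 genes are given beside these patterns, to show sequence before annotated starts of different base composition. Each runs 5′ to 3′ over the 250 bases before the most upstream start in GENCODE M21 or in RefSeq (GRCm38.p6, the assembly also called mm10), with every CG in capitals. Ebf1 (chr11:44617067-44617316, plus strand), Lef1 (chr3:131110047-131110296, plus strand) and Bcl11b (chr12:108003603-108003852, minus strand) are shown as genes with H3K27me3 at both ages. Tcf7 (chr11:52283015-52283264, minus strand) is shown for aged H2AK119ub1 alone, and Rag1 (chr2:101649533-101649782, minus strand) as a gene with no peak.
Ebf1: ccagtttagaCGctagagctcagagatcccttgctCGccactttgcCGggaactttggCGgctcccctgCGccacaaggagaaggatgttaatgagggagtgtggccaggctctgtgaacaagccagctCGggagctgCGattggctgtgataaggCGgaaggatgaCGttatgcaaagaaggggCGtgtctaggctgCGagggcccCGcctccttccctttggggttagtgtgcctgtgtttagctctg
Lef1: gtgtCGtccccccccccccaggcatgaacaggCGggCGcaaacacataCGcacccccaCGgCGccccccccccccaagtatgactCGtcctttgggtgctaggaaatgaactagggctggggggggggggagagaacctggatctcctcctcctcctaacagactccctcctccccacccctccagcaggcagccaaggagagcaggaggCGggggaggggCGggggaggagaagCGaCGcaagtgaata
Bcl11b: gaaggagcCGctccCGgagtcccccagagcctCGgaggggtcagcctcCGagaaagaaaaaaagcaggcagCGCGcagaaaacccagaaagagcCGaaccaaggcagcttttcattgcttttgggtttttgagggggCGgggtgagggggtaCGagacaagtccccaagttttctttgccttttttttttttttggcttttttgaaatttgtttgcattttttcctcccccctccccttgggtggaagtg
Tcf7: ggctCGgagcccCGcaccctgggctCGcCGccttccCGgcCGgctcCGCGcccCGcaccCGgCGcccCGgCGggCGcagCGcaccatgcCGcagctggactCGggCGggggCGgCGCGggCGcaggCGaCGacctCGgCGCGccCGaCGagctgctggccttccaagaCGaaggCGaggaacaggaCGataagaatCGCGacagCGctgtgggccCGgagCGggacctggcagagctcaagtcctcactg
Rag1: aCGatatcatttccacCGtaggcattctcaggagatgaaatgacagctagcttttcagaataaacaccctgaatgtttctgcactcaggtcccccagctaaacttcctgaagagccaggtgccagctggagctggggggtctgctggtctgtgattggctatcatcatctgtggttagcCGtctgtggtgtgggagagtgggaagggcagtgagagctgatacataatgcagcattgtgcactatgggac
The Ebf1 stretch held 12 CG, the Lef1 stretch 11 and the Bcl11b stretch 9. The Tcf7 stretch held 37 CG and the Rag1 stretch 3. From its first ATG to its end the Tcf7 stretch reads as codons without a stop. It may thus be in large part coding sequence of a longer form, and its CG count may not be that of a promoter.

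At promoters, H3K4me3 was listed at 4 of the 10 genes in young HSCs, beside 33.8% of all coding genes, and at 3 of 10 in aged HSCs, beside 23.3%. H3K27me3 was listed at 4 of 10 in young HSCs, beside 16% of all genes, and at the same 4 in aged HSCs, beside 8.24%. H2AK119ub1 was listed at 0 of 10 in young HSCs, beside 1.91% of all genes, and at 5 of 10 in aged HSCs, beside 14%. The background thus moved in the same direction as the 10 genes for H3K4me3 and H2AK119ub1, while for H3K27me3 the share of all genes was lower in the aged list and the 4 genes were listed at both ages. At a −log10 q of at least 2, however, aged H3K27me3 was listed at a promoter of 2 of them, Lef1 and Ikzf3, and no longer at Ebf1 and Bcl11b.

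**Figure D1:**
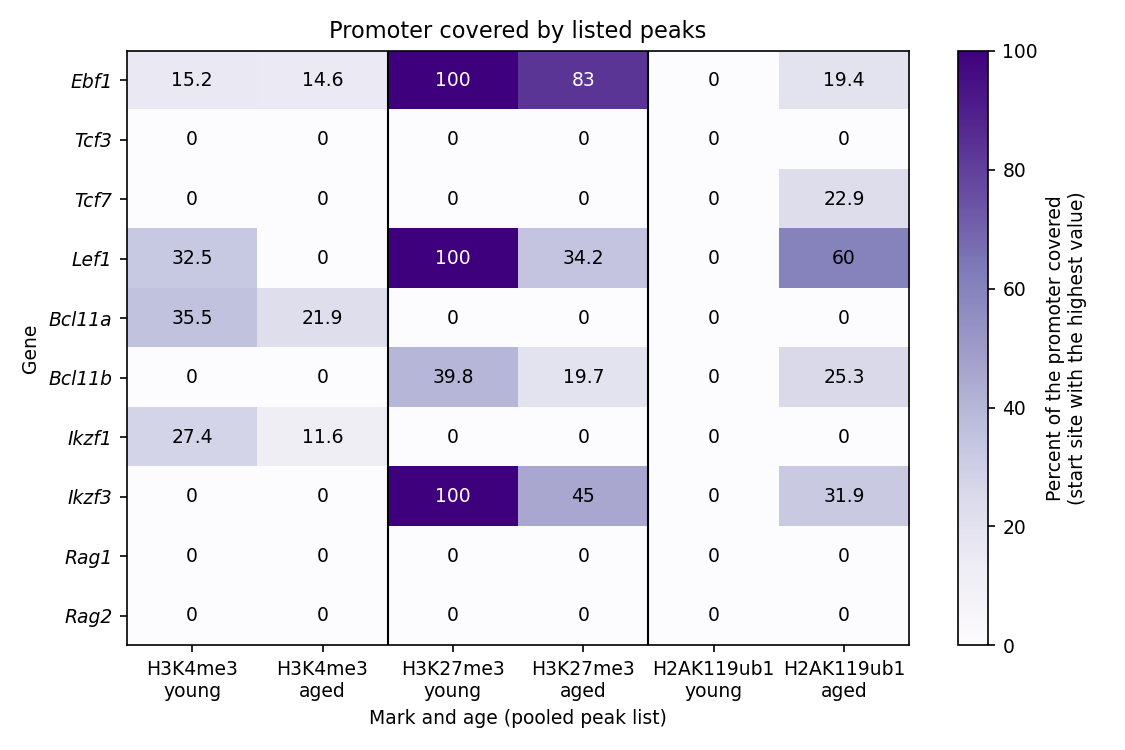
Percent of the promoter (1 kb before and after a start site) covered by listed peaks, for the 10 genes in rows and the 6 pooled lists in columns, at the start site with the highest value. Young H3K27me3 covers 100% at Ebf1, Lef1 and Ikzf3, the young H2AK119ub1 column is at 0 throughout, and Tcf3, Rag1 and Rag2 are at 0 in every list.

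Over gene windows, H3K4me3 was found at 7 of the 10 genes in young HSCs (40.6% of all genes) and 5 in aged HSCs (29%). At both ages Tcf3 and Rag2 counted only through a peak near or over the start of a neighbouring gene. The shares of all genes were counted by the same rule. H3K27me3 was found at 4 genes at each age (27.8% of all genes in young and 16.5% in aged HSCs). H2AK119ub1 was found at 3 genes in the young list (5.99%) and at 6 in the aged list (29%). Long windows hold more peaks, and 6 of the 10 genes are at least 50 kb long. Among 4985 genes of that length, H3K4me3 was listed in 51.9% in young and 38.5% in aged HSCs, beside 5 and 3 of the 6. For H3K27me3 these shares were 41.1% and 27.9%, beside 4 of the 6 at each age. For H2AK119ub1 they were 8.81% and 44.3%, beside 3 and 5 of the 6.

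Summed over the windows, H3K4me3 covered 6.87 kb in 21 peaks in young HSCs and 2.35 kb in 7 peaks in aged HSCs. These lengths include the Tcf3 and Rag2 peaks near or over starts of neighbouring genes. The ratio of aged to young length was 0.342, beside 0.529 for the whole lists. H3K27me3 covered 64.7 kb in 73 regions in young HSCs and 21.3 kb in 39 regions in aged HSCs, a ratio of 0.329 beside 0.244 for the whole lists. H2AK119ub1 covered 1.23 kb in 3 regions in young HSCs and 14.5 kb in 34 regions in aged HSCs, a ratio of 11.9 beside 7.83. The lists differ in length in the same direction, with 11371 young and 6723 aged H3K4me3 peaks, 63142 young and 20419 aged H3K27me3 regions, and 2593 young and 17768 aged H2AK119ub1 regions. When the longer list of each mark was cut to the length of the shorter one by −log10 q, the young and aged lengths were 4.69 and 2.35 kb for H3K4me3, 42.6 and 21.3 kb for H3K27me3, and 1.23 and 2.99 kb for H2AK119ub1. The order of the ages stayed as before for each mark, and the distance between them was smaller. For H3K27me3 the number of regions then turned around, with 22 young and 39 aged regions, the young ones being longer.

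**Figure D2:**
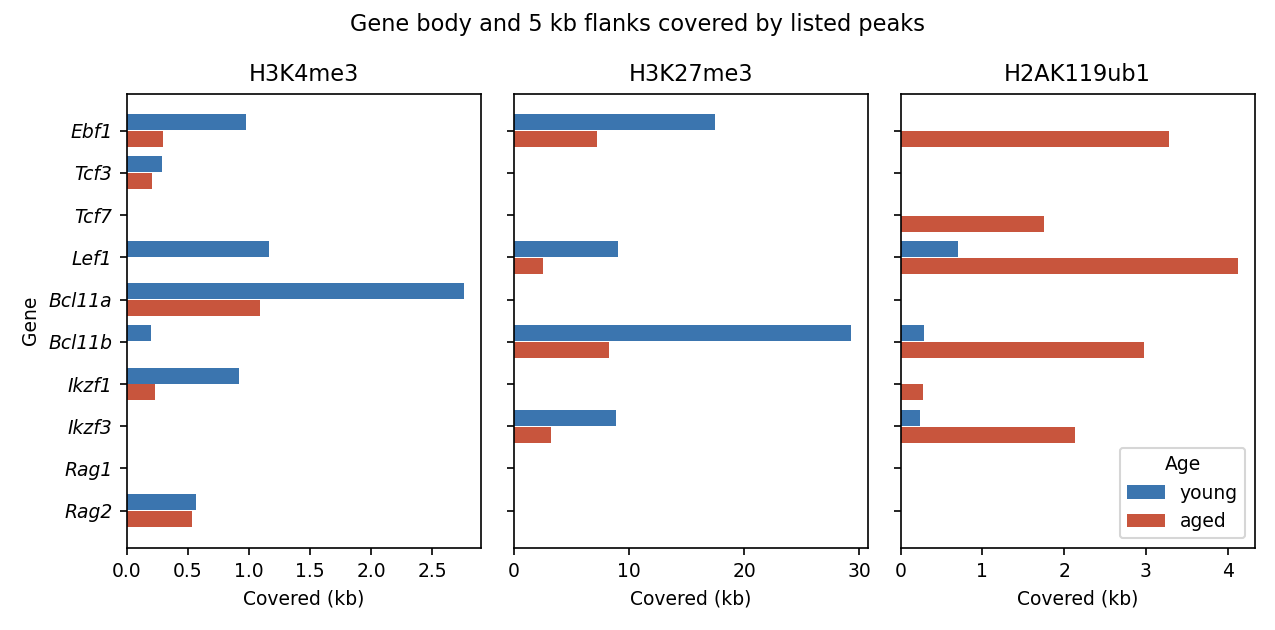
Length of each gene window (gene body with 5 kb on either side) covered by listed peaks, in kb, with 1 panel per mark, each with its own scale, and bars for the young and aged pooled lists. Bcl11b has 29.3 kb of young and 8.31 kb of aged H3K27me3, and Lef1 has 0.704 kb of young and 4.12 kb of aged H2AK119ub1.

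Ebf1, the factor that commits progenitors to the B lineage, carried all 3 marks at its start. The gene spans 391 kb of chromosome 11 (44617317 to 45008091, plus strand) and has 1 coding start site in the annotation. Young H3K27me3 formed a region of 6658 bp over the start, with a mean enrichment of 3.77-fold over background, and an upstream region of 3039 bp at 3.98-fold. In the aged list the 6658 bp were represented by 4 regions that covered 67.4% of it, and the 3039 bp by 2 regions that covered 69.2%. The promoter itself was covered over 100% by young and 83.0% by aged H3K27me3. Across the whole window, Ebf1 had 26 young regions (17.5 kb) and 10 aged regions (7.22 kb).

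H3K4me3 at the Ebf1 start was a peak of 305 bp in young HSCs, at 3.61-fold and a summit pileup of 16 reads. The aged peak was 292 bp long, at 3.98-fold and 17 reads. The peaks overlapped by 155 bp, and both lay within H3K27me3 of the same age, so the Ebf1 promoter was bivalent in the lists of both ages. Both lay below the median pileup of their lists, of 20 reads (young) and 19 reads (aged). When the young list was shortened to the 6723 peaks with the highest −log10 q, the young Ebf1 start peak was no longer in it. A further young peak of 401 bp lay 4598 bp upstream at 4.68-fold, and another of 269 bp in an intron 215893 bp downstream at 3.03-fold, and neither had an aged counterpart.

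H2AK119ub1 was not listed in the Ebf1 window in young HSCs, where the nearest region to the start was 842 kb away. In aged HSCs 10 regions covered 3.28 kb, and 2 of these covered 19.4% of the promoter. Of the 10 regions, 5 overlapped aged H3K27me3. The aged H3K4me3 peak shared 60 bp with aged H2AK119ub1.

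**Figure D3:**
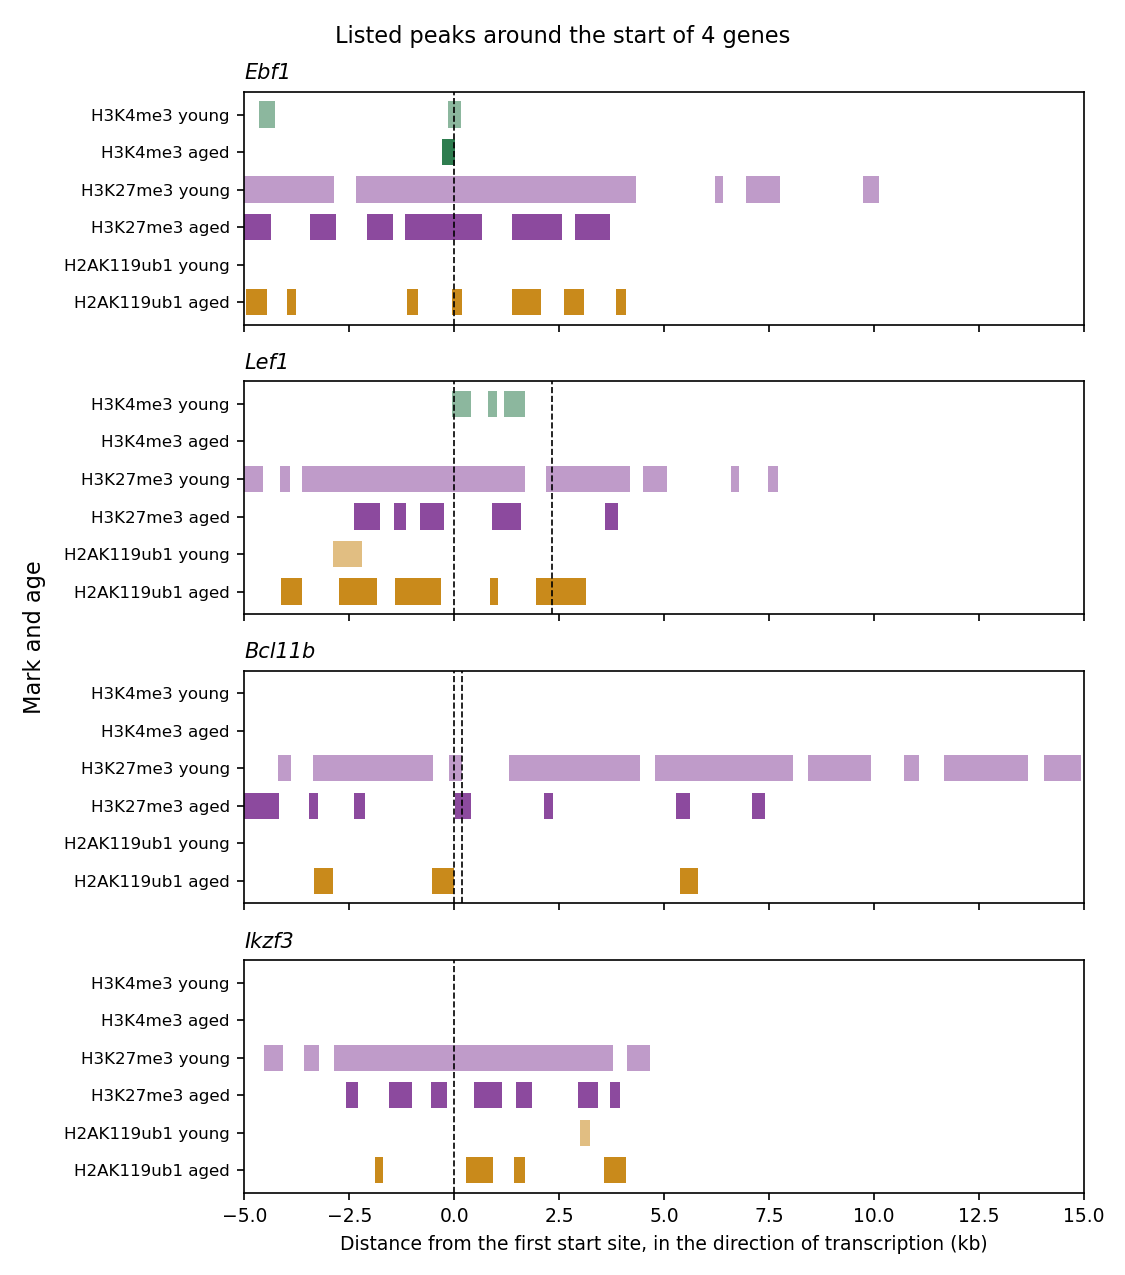
Listed peaks from 5 kb before to 15 kb after the first start site of Ebf1, Lef1, Bcl11b and Ikzf3, as bars to scale along the distance from that start in kb, with 1 row per mark and age and dashed lines at coding start sites. Long young H3K27me3 regions (6658 bp at Ebf1, 5324 bp at Lef1, 6657 bp at Ikzf3) stand above rows of shorter aged regions. H2AK119ub1 regions appear mostly in the aged rows, with a young region of 704 bp at Lef1 and of 239 bp at Ikzf3.

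Ikzf3 encodes Aiolos, an Ikaros family protein of maturing lymphocytes. The gene lies on the minus strand of chromosome 11 (98464902 to 98546031). A single young H3K27me3 region of 6657 bp at 3.71-fold lay over its start. The aged list held 7 regions that overlapped it, the widest of 682 bp, which covered 42.4% of its length. Young H3K27me3 covered 100% of the promoter and aged H3K27me3 45.0%, in 3 regions. Aged H2AK119ub1 covered 31.9% of the promoter in 1 region, while the single young region of 239 bp lay 3004 bp inside the gene. No H3K4me3 peak was listed in the Ikzf3 window at either age. The nearest lay 5.28 kb from the start in the young list and 5.34 kb in the aged list.

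Lef1 encodes a TCF family factor that binds β-catenin and acts in T cell and early B cell development. The gene spans 114 kb of chromosome 3 (131110471 to 131224356, plus strand), with a second start 2326 bp after the first. Young H3K27me3 covered 100% of the promoter at the first start and 75.6% at the second, in regions of 5324 bp at 4.23-fold and 2005 bp at 3.70-fold. Aged H3K27me3 covered 34.2% and 13.1% of these promoters, and the widest aged region in the window was 678 bp.

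H3K4me3 at the Lef1 promoters was listed in young HSCs, in 3 peaks of 460, 200 and 500 bp with enrichments of 4.04, 4.03 and 3.83-fold and pileups of 18, 19 and 17 reads. All 3 lay wholly within young H3K27me3. The nearest aged peak was 378 kb from a Lef1 start. Lef1 was thus bivalent in the young list, and carried H3K27me3 with H2AK119ub1 in the aged list. All 3 young peaks stayed at a −log10 q of at least 2, and 2 of the 3 stayed when the young list was cut to the length of the aged one.

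Aged H2AK119ub1 covered 42.3% of the first and 60.0% of the second Lef1 promoter, in a window with 6 regions and 4.12 kb. In the young list 1 region of 704 bp lay 2187 bp upstream of the first start, at 2.81-fold, and 565 bp of it lay under aged H2AK119ub1.

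Bcl11b, needed for commitment to the T lineage, had the longest H3K27me3 coverage of the 10 genes. The gene lies on the minus strand of chromosome 12 (107910403 to 108003602). Young H3K27me3 covered 29.3 kb of its window in 33 regions, or 28.4% of it, and 3.01% of all coding genes had a window covered as much or more. Aged H3K27me3 covered 8.31 kb in 16 regions, or 8.05%, which 2.81% of genes matched or passed. Of the 6 young regions of at least 2 kb, 1 of 2586 bp deep in the gene was covered over 86.2% by an aged region of 2230 bp. The other 5 were covered over 0 to 19.3%. At the first start, the promoter was covered over 39.8% by young and 19.7% by aged H3K27me3.

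H3K4me3 was not listed at a Bcl11b promoter at either age. The only H3K4me3 peak in its window was a young one of 200 bp at 4.68-fold, in an intron 26.9 kb from the start and within H3K27me3. Aged H2AK119ub1 covered 25.3% of the promoter and 2.98 kb of the window in 5 regions, of which 4 overlapped aged H3K27me3. The single young H2AK119ub1 region, of 283 bp, lay inside the same intronic H3K27me3 stretch that the aged region of 2230 bp covered.

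Over these 4 genes, 11 young H3K27me3 regions were at least 2 kb wide, of 2791 such regions in the whole list. An aged region lay in 9 of the 11 (81.8%), beside 86.4% of all. The median share of a region covered in the aged list was 19.3% for the 11 and 32.1% for all. Aged H2AK119ub1 lay in 72.7% of the 11 and in 62.7% of all. Of the 11 regions 6 were of Bcl11b. The other 5, of Ebf1, Lef1 and Ikzf3, had a median of 42.4%, above that of the list, a split made after the values were seen. The 6 of Bcl11b had a median of 10.3%, although 1 of them, at 86.2%, was the highest of the 11. A Lef1 region, at 16.2%, lay below the median of the 11.

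Bcl11a, a zinc finger factor of early lymphoid and B cell development and of globin switching, had the most H3K4me3 peaks of the 10 genes. The gene spans chromosome 11 from 24078056 to 24174123 on the plus strand and has 4 coding starts within 2614 bp. The young list held 9 peaks (2.76 kb) and the aged list 3 (1.09 kb), of which 3 and 2 lay at a Bcl11a promoter. The strongest young peak, of 410 bp at 5.95-fold and 27 reads, had its summit 1336 bp upstream of the first start. An aged peak of 409 bp at 5.08-fold and 22 reads overlapped it by 396 bp. Both peaks lay outside the Bcl11a promoters, 1062 and 1076 bp from the nearest start. One of the 9 young peaks, at 5.44-fold, covered the start of the neighbouring gene A830031A19Rik. No H3K27me3 or H2AK119ub1 was listed in the window at either age.

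Ikzf1, which encodes Ikaros, a factor needed for lymphoid development, had 3 young H3K4me3 peaks and 1 aged peak. All lay in an intron downstream of the starts. The young peaks were at 4.25, 4.04 and 2.74-fold, and the aged one at 4.42-fold, with 177 bp shared with the second. With promoters of 500 bp on either side, the aged peak was no longer counted, since it lay 586 bp from the nearest start. H3K27me3 was absent from the lists within 334 kb (young) and 346 kb (aged) of a start. A single aged H2AK119ub1 region of 269 bp lay 1942 bp upstream, outside the promoter.

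Sequence under H3K4me3 of both ages is given for these genes, as the parts common to the young and the aged peak. The Bcl11a stretch (chr11:24077298-24077464, plus strand) lies upstream of the first start and the Ikzf1 stretch (chr11:11687031-11687207, plus strand) in an intron downstream of the starts, both 5′ to 3′ with every CG in capitals.
Bcl11a: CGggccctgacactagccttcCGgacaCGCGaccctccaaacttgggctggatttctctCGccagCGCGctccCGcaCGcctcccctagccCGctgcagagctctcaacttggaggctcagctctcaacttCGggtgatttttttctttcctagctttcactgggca
Ikzf1: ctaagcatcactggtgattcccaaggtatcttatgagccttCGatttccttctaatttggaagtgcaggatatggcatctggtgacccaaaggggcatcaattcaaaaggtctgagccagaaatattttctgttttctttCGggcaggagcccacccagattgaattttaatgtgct
The Bcl11a stretch of 167 bp held 11 CG, and the Ikzf1 stretch of 177 bp held 2.

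**Figure D4:**
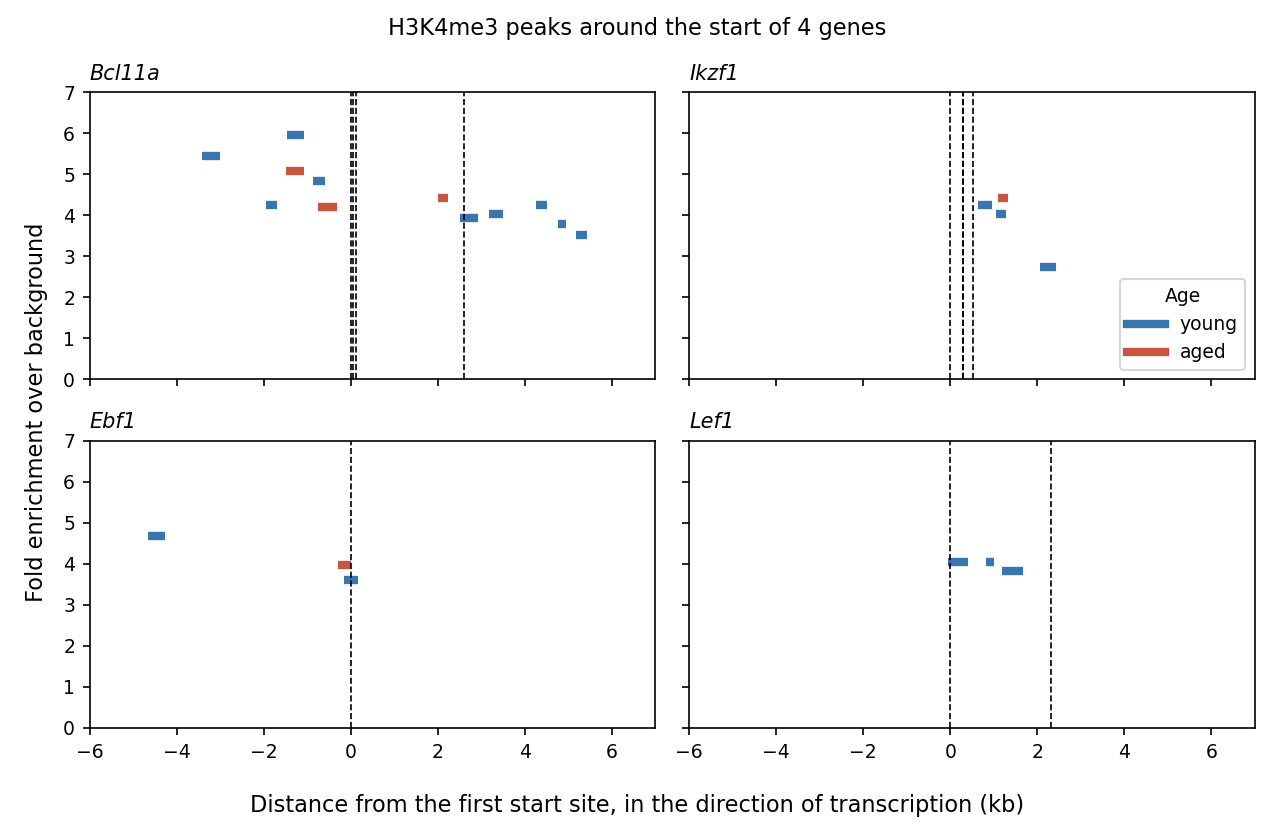
Fold enrichment over background (linear axis from 0) of H3K4me3 peaks around the first start of Bcl11a, Ikzf1, Ebf1 and Lef1, each peak drawn as a bar over its length in kb from that start, with dashed lines at coding starts. The 9 young peaks of Bcl11a reach 5.95-fold and the 3 aged peaks 5.08-fold, and Lef1 has young peaks only.

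Tcf7, which encodes TCF-1, an early T cell factor, carried a mark in a single list. On the minus strand of chromosome 11 (52252371 to 52283014), 6 aged H2AK119ub1 regions covered 1.75 kb, or 4.30% of the window, a share that 5.19% of coding genes matched or passed. A region of 458 bp at 3.67-fold lay 276 bp from the nearest start and covered 14.1% and 22.9% of the promoters at the 2 starts. This promoter call holds for the annotated starts. A longer form, as the printed stretch may belong to, could start further upstream, and its promoter was not examined. No H3K27me3 was listed within 153 kb (young) or 480 kb (aged) of a start, and the nearest H3K4me3 peak was at 49.5 kb (young) and 114 kb (aged).

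Tcf3 had no promoter peak. The single H3K4me3 peak of its window at each age, of 290 bp in young and 202 bp in aged HSCs, lay 133 and 73 bp from the start of the neighbouring gene Uqcr11 and 23.8 and 23.9 kb from a Tcf3 start. Rag1, which with Rag2 cuts antigen receptor genes, had no peak in any list, and its nearest H3K4me3 peak was 20.5 kb from the start. The Rag2 window held 1 peak per age, of 561 bp at 4.23-fold in young and 532 bp at 5.97-fold in aged HSCs, which lay in an intron of Rag2 and over the start of the gene B230118H07Rik, with the 532 bp of the aged peak inside the young one.

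Peaks shared between the ages were counted by an overlap of at least 1 bp. Of the young H3K4me3 peaks in the windows 6 of 21 (28.6%) were shared, beside 31.5% of the whole list, and of the aged peaks 6 of 7 (85.7%), beside 53.1%. The shared H3K4me3 peaks include those of Tcf3 and Rag2 near or over starts of neighbouring genes. For H3K27me3, 19 of 73 young regions (26.0%) were shared, beside 15.4%, and 32 of 39 aged regions (82.1%), beside 66.0%. For H2AK119ub1, 1 of 3 young regions (33.3%) was shared, beside 50.9%, and 1 of 34 aged regions (2.94%), beside 7.07% of the list.

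Marks overlapped one another in the windows. In young HSCs 7 of 21 H3K4me3 peaks (33.3%) lay over H3K27me3, beside 7.40% of the whole list, and in aged HSCs 1 of 7 (14.3%), beside 2.53%. The 7 young peaks were of Ebf1 (3), Lef1 (3) and Bcl11b (1) alone, and peaks of a gene are not independent of each other. Of the aged H2AK119ub1 regions 15 of 34 (44.1%) lay over aged H3K27me3, beside 25.9% of the list, and all 3 young regions did, beside 74.2%. At promoters, H3K4me3 with H3K27me3 was listed at Ebf1 and Lef1 in young HSCs (2.96% of all genes) and at Ebf1 in aged HSCs (0.792%). H2AK119ub1 with H3K27me3 was listed at Ebf1, Lef1, Bcl11b and Ikzf3 in aged HSCs (4.99%) and at none of the 10 in young HSCs (1.65%). The cells of a library are pooled, so marks of 1 promoter may come from different cells.

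Taking the 6 promoter and 6 window values as yes or no, the number of other coding genes with the same 12 values was 48 for Ebf1, 34 for Lef1, 24 for Bcl11b and 145 for Ikzf3. It was 400 for Ikzf1, 325 for Tcf7 and 219 for Tcf3 and Rag2, which had the same values as each other. It was 2553 (11.7% of genes) for Bcl11a and 6906 (31.6%) for Rag1.

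The 300-base promoter windows of RefSeq (250 bases before to 50 after a start) were found for 9 of the 10 genes, Ikzf3 being the exception, and were compared with all 32851 windows of the table. CpG content, as observed over expected from the C and G bases, had a median of 0.815 over the 9 genes and 0.384 over all windows. Ikzf1 (1.06), Tcf7 (1.03), Tcf3 (1.03) and Ebf1 (0.954) were highest. The Tcf7 window contains the stretch printed above, which may be in large part coding sequence. Bcl11a (0.815), Bcl11b (0.652) and Lef1 (0.620) lay between, and Rag2 (0.216) and Rag1 (0.165) were below the median of all windows. The RefSeq start nearest to the first GENCODE start lay 783 bp from it for Ebf1 and 2639 bp for Bcl11a, and at most 188 bp for the other 7. The value of Ebf1 differed with the window taken. In the 250 bases before the most upstream start, printed above, CpG observed over expected was 0.585 for Ebf1, 0.40 for Lef1 and 0.537 for Bcl11b, beside 1.03 for Tcf7 and 0.190 for Rag1.

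**Figure D5:**
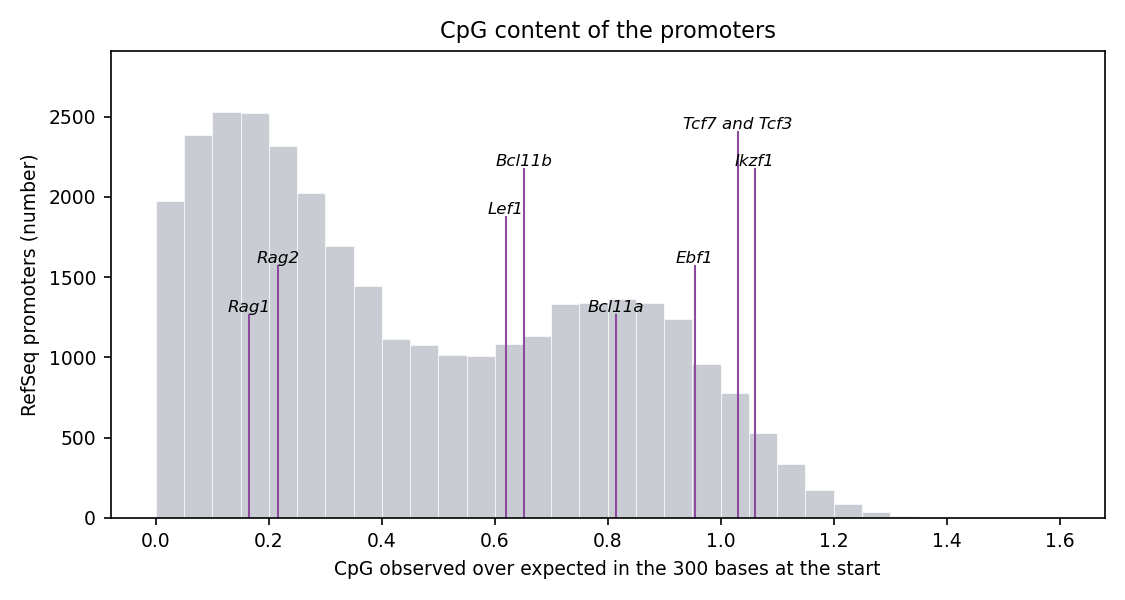
Number of RefSeq promoter windows of 300 bases by CpG observed over expected (grey bars, 32851 windows), with lines at the values of the 9 genes found in the table. Rag1 and Rag2 lie in the low part of the distribution and the other 7 genes above the median of 0.384; the height of a line carries no value.

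Short motifs were searched on both strands of these windows. The GC box GGGCGG, which itself contains a CG, was found at 5 of 9 genes (Tcf3, Tcf7, Lef1, Bcl11a and Ikzf1), beside 35.7% of all windows. The E-box CANNTG was found at 6 of 9, beside 72.3%, with 4 places at Rag1. The TCF/LEF core CTTTGA was found at Ebf1 and Bcl11b (2 of 9), beside 16.0%, and the Ikaros core TGGGAA at Lef1, Bcl11a and Rag1 (3 of 9), beside 25.6%. These are matches of letters and not sites of binding.

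The wider pathway was read from lists of 68 genes, of paralogs, partners and inhibitors, lineage targets, innate lymphoid factors and recombination enzymes. H3K4me3 was listed at a promoter of 25 of these genes in the young list (36.8%) and of 15 in the aged list (22.1%), beside 33.8% and 23.3% of all genes. H3K27me3 was listed at 12 (17.6%) and 7 (10.3%), beside 16% and 8.24%. H2AK119ub1 was listed at 4 (5.88%) and 17 (25.0%), beside 1.91% and 14%. Of the paralogs, Ebf2, Ebf3 and Ebf4 had H3K27me3 at both ages and H2AK119ub1 in the aged list, of which Ebf3 and Ebf4 also had H2AK119ub1 in the young list, and Ikzf5 had aged H2AK119ub1 alone of the Polycomb marks. The 4 inhibitors of E proteins, Id1, Id2, Id3 and Id4, all had H2AK119ub1 at a promoter in the aged list, and Id2 in the young list too. H3K27me3 was listed at a promoter of Id2, Id3 and Id4 in young HSCs and of none of the 4 in aged HSCs. Aged H3K27me3 still covered 13.2% of the Id4 window and 3.96% of the Id3 window, beside 46.8% and 27.4% in the young list.

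The marks in this paragraph are at promoters, apart from those of Gata3. Among the other partners, Pax5 and Runx3 had H3K27me3 at both ages with H2AK119ub1 in the aged list. Foxo1, Notch1 and Runx1 had aged H2AK119ub1 alone of the Polycomb marks. Gata3 had neither Polycomb mark at a promoter. In its window H3K27me3 covered 32.9% (young) and 12.6% (aged), and H2AK119ub1 1.69% and 15.5%. None of 13 B lineage targets had a Polycomb mark at a promoter at either age. Over all genes the promoter shares were 16% (young) and 8.24% (aged) for H3K27me3 and 1.91% and 14% for H2AK119ub1. Beside these shares, counts in lists as short as these say little. Of 14 T lineage targets, Cd2 and Cd3e had young H3K27me3, Lat young H2AK119ub1 and Lck aged H2AK119ub1. Of the innate lymphoid factors, Eomes and Tbx21 had H3K27me3 at both ages, and Eomes had aged H2AK119ub1. Of 8 recombination and repair genes, Xrcc6 had aged H2AK119ub1.

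The sorted cells were checked by H3K4me3 at promoters of marker genes. It was listed at 9 of 12 HSC markers at each age, beside 33.8% (young) and 23.3% (aged) of all coding genes. It was listed at 0 of 4 B cell, 0 of 3 T cell and 0 of 5 myeloid markers at either age. Beside these shares of all genes, 0 of so few markers says little about other cells in the sort. Ly6a, which encodes Sca-1, and Slamf1, which encodes CD150, had no H3K4me3 peak at a promoter at either age although both proteins were used in the sort. Kit, which encodes c-kit, also used in the sort, had such a peak in the aged list alone. Of 7 housekeeping genes 4 had such a peak at each age, with none at Ppia or Hprt, and a gene without a listed peak may still carry the mark. The lowest background under an H3K4me3 peak was 3.70 reads (young) and 3.52 reads (aged).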

How the data were processed

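ChIP-seq peak lists of 3 histone marks in young and aged HSCs were analysed. The authors aligned single reads to mm10 with Bowtie2, and MACS2 2.2.6 is named in the submitters' processing notes. Names of single H3K4me3 peaks show a q of 0.05 and those of broad regions a cutoff of 0.1. Only 1 library number stands in the broad names, and whether both libraries went into a broad list is unknown. The treatment of duplicated and multiply aligned reads is not given in the sources used here, and both can change which peaks are listed.

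The deposited lists give, for each peak, a fold enrichment (a linear ratio to the background), the −log10 of the p-value and of the q-value, a score that repeats the −log10 q, and for H3K4me3 the summit offset in bp, all as the authors' peak caller wrote them. In the broad lists these are averages over a region. They were used to describe and rank peaks, with no test.

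Genes and start sites came from GENCODE M21 (41438 starts of coding transcripts of the basic set). A peak was assigned by an overlap of at least 1 bp on chromosomes 1 to 19, X and Y. Depth is not part of a list, and only H3K4me3 pileups were recovered, from fold and p-value, to within 0.01 in −log10 p for 100% of peaks at both ages. Tools were pandas 2.3.3, numpy 2.4.6 and scipy 1.17.1 under Python 3.11.15, and matplotlib 3.10.9 for plots, and window counts equalled those of bedtools 2.31.1. The code was tested on simulated data.

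The genes, the pathway and marker lists and the rules were chosen with earlier results of these data known. All 10 genes are named, and of the pathway lists the genes with H3K27me3 or H2AK119ub1 at a promoter, apart from an item that, like 1 list of markers, is not reported here. Neighbouring genes, Gata3, the markers discussed and peaks singled out were named after their values were seen. The alternatives were a −log10 q of at least 2, lists of equal length, smaller and larger windows, starts of every transcript, and sharing over at least 50% of a peak.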

Additional observations from a re-analysis of the deposited data

How the results depend on the processing

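No paired analysis was possible because values came from a single list, named as pooled, for a mark at an age. For the same reason no replicate was left out in turn. Of 132 recomputed counts and lengths, 98 stayed within 1.5 times the reported value and 34 did not. Fewer peaks or shorter windows enter all of these but one, which had a stricter rule for a shared peak.

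With a −log10 q of at least 2, aged H3K27me3 was at a promoter of 2 genes (Lef1 and Ikzf3), young H2AK119ub1 was in 0 windows with 0 regions and 0 kb, and young H3K27me3 had 31 regions, of which 4 were shared. Aged H3K27me3 then had 10 regions over 5.07 kb, of which 9 were shared, and aged H2AK119ub1 had 13 regions over 5.40 kb. Neither age then shared an H2AK119ub1 region (0 and 0).

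With lists of equal length, aged H2AK119ub1 was at a promoter of 3 genes (Ebf1, Tcf7 and Lef1) and in 3 windows. It then had 7 regions over 2.99 kb, and 0 young or aged regions were shared. Young H3K27me3 then had 22 regions over 42.6 kb, of which 10 were shared. The summed length stayed larger in the young list for H3K27me3 and in the aged list for H2AK119ub1.

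Without flanks and with promoters of 500 bp, aged H3K4me3 had 4 peaks over 1.01 kb, and 3 young and 3 aged peaks were shared. Aged H3K27me3 then covered 14.2 kb with 21 shared regions, young H2AK119ub1 covered 0.522 kb, aged H2AK119ub1 had 21 regions over 8.80 kb, and 0 of either age were shared. With at least 50% of a peak required, 5 young H3K27me3 regions were shared. Every count and length stayed within 1.5 times under larger windows, as did the promoter counts, the only values recomputed with starts of every transcript.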
